A study of Mus musculus with 6 samples.

Results

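The semaphorin and plexin genes were taken as every gene on the array whose single annotated symbol begins with Sema3 to Sema7, Plxn or Plxdc. This rule found 32 of the 18193 named genes, on 76 of the 45101 probe sets: 20 semaphorins, 9 plexins, the plexin domain genes Plxdc1 and Plxdc2, and Plxna4os1, a transcript from the opposite strand of the plexin A4 gene. Each gene was read from its brightest probe set, chosen by its mean over all arrays, and the other probe sets of the 25 genes that have more than 1 were used to see whether they moved the same way. All 32 genes entered the test.

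Total RNA came from ICR mice at 8.5 dpc (days post coitum), a stage of 3 to 4 somites that precedes the onset of circulation, and was hybridised to 6 Affymetrix expression arrays. The groups were Flk1-positive cells, wild-type embryos (WT) and Flk1 KO embryos, with 2 arrays each. Flk1 is the VEGF receptor encoded by Kdr, which marks blood vessel precursors and is required for their formation. The embryo samples were the embryo proper. The design text also names Flk1+/GFP embryos without tying them to a group, and how the Flk1-positive cells were picked out, how the KO allele was made and how many embryos went into a sample are not given in the sources used here. Whether replicate arrays stand for separate litters or pools is likewise not stated, so the p-values measure only the spread between these arrays.

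Kdr itself gave a signal of 3309 and 3328 in the Flk1-positive cells, 543.9 and 545.5 in WT and 29.51 and 63.76 in Flk1 KO, which follows the labels. The trimmed mean of every array was 500, and 54.3% to 57.8% of probe sets were above background, set at a signal of 57.4 from 80 probe sets of odorant and vomeronasal receptors. The summed signal of 8 endothelial markers was 32930 to 33330 in the Flk1-positive cells, 2211 to 2311 in WT and 524.1 to 621.2 in Flk1 KO, where 7 of the 8 were not above background. Blood markers were also higher in the Flk1-positive cells. The sum of 5 primitive erythroid genes was 42790 to 44520 there, 478.8 to 985.4 in WT and 141.7 to 272.1 in Flk1 KO. That of 6 myeloid and megakaryocyte genes was 4269 to 4429, 611.7 to 652.2 and 401.5 to 605.5, with Gp9 not above background in any group. At a limma adjusted p under 0.05, 0 of the 5 tested genes of either blood list differed between Flk1 KO and WT. Of the 8 endothelial markers, 4 were lower in Flk1 KO at that threshold. The Flk1-positive cells thus carried markers of both endothelium and blood, and the part of either in the rises given here was not tested.

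Semaphorins are secreted or membrane-bound guidance proteins, and plexins are the receptors through which they change the cytoskeleton and adhesion of the receiving cell. Most secreted class 3 semaphorins bind a neuropilin that pairs with an A-type plexin, while Sema3e binds plexin D1 directly. Membrane-bound classes 4 to 7 mainly use B-type, A-type or C1 plexins. In the embryo the family is best known for steering axons, neural crest cells and growing vessels, and plexin D1 is the plexin most closely tied to endothelium.

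Against WT, 6 of the 32 genes rose in the Flk1-positive cells (18.8%) and 13 fell (40.6%), while over all 14946 genes tested 12.5% were higher and 18.1% lower. A gene was called at a limma adjusted p under 0.05, corrected over all 33778 probe sets tested. The genes that rose were Plxnd1, Sema3g, Sema6d, Sema6b, Sema7a and Plxnc1. Those that fell were 5 class 3 semaphorins (Sema3a, Sema3b, Sema3c, Sema3d and Sema3e), 4 of class 4 (Sema4b, Sema4d, Sema4f and Sema4g), Sema5a, and the plexins Plxna3, Plxnb1 and Plxnb2. The median difference was -0.47 on the log2 scale for the family and -0.09 for all genes tested. Leaving out each array in turn, 4 of the 6 rises held every time (Plxnc1, Plxnd1, Sema3g and Sema6d) and 7 of the 13 falls (Plxnb2, Sema4d and the 5 of class 3). Without array 1 of WT, 8 genes fell in place of 13.

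In whole embryos a weak signal cannot show whether fewer cells make a transcript or each cell makes less of it. In the following, 2 signals are given for each group in the order of its arrays, and a difference is between group means of log2(signal + 21.61), with its standard error (SE) from the fit and n = 2 arrays per group. Fold changes are on that same scale, which understates changes of dim genes. Where the dimmer group lay below background the fold is written as at least its value, computed against the background level. Signals of different genes come from different probes and were not set against each other.

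**Figure D1:**
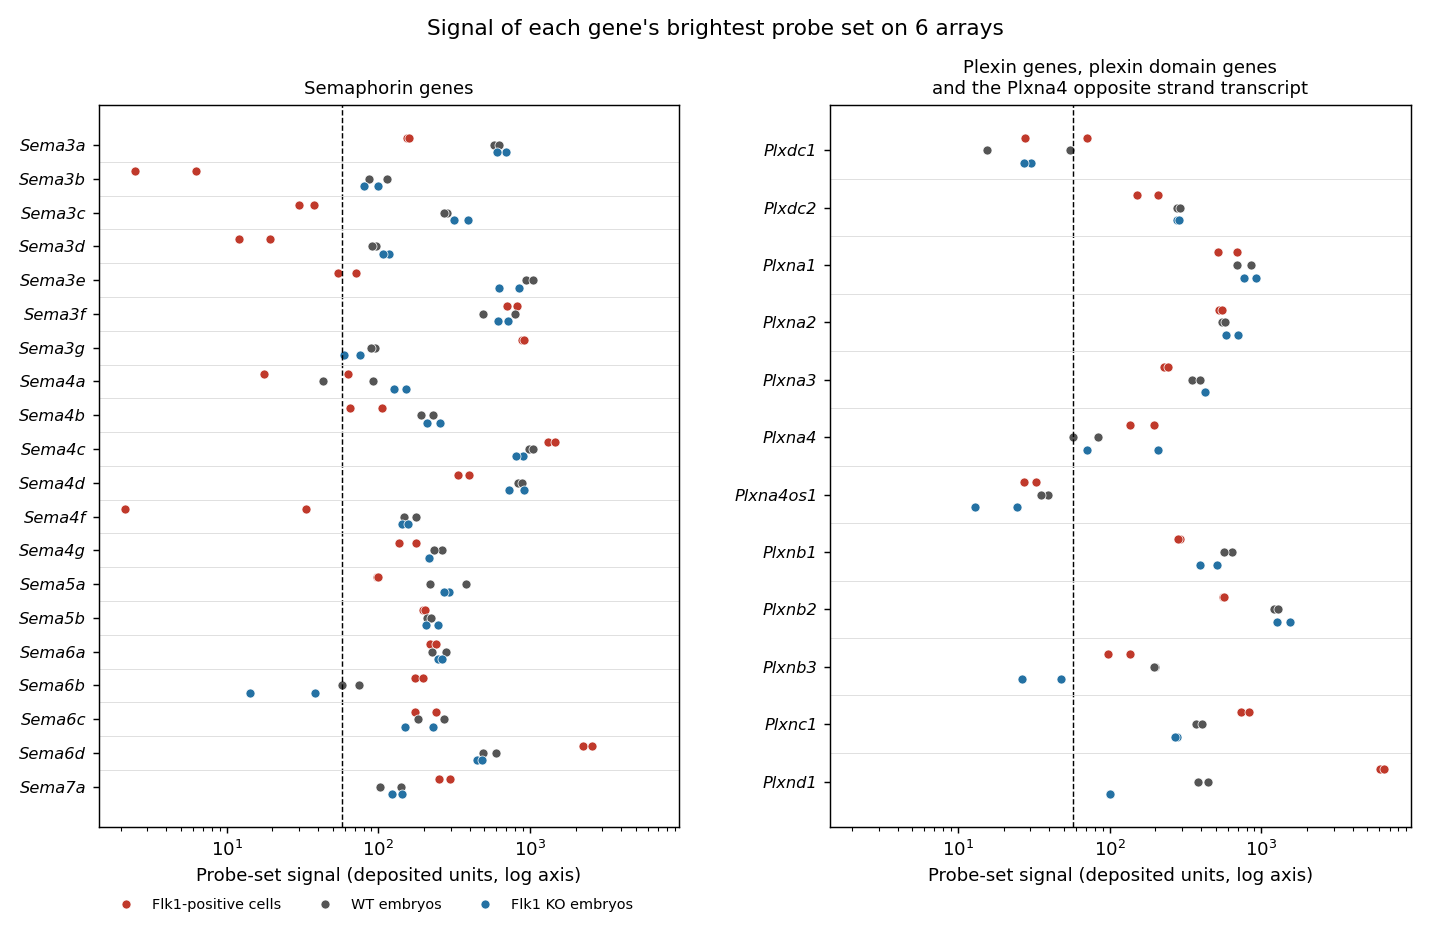
Signal of the brightest probe set of each of the 32 genes (horizontal log axis, deposited units), 1 point per array, for Flk1-positive cells (red), WT embryos (grey) and Flk1 KO embryos (blue); the dashed line is the background level of 57.4. Plxnd1 separates all 3 groups, from about 6040 and 6442 in the Flk1-positive cells to 100.9 and 101.2 in Flk1 KO, while Sema3e lies low only in the Flk1-positive cells.

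Among the plexins, Plxnd1 had the largest difference from WT. This receptor of Sema3e, needed for the patterning of embryonic vessels, read 6040 and 6442 in the Flk1-positive cells, 445.9 and 381 in WT, and 100.9 and 101.2 in Flk1 KO. The 3 groups did not overlap and fell in that order. It rose by 3.85 ± 0.14 (SE) in the Flk1-positive cells against WT, a 14.4-fold difference (limma adjusted p = 0.000388). It has no second probe set on the array. Plxnc1, the receptor of Sema7a, read 736 and 824.4 in the Flk1-positive cells, 368.4 and 404.8 in WT and 276.7 and 269.7 in Flk1 KO, again in 3 separate steps. Its rise over WT was 0.97 ± 0.13 (limma adjusted p = 0.00566), with all 4 of its other tested probe sets in the same direction and 3 of them called. Between Flk1 KO and WT, 3 of these 4 had the sign of the brightest probe set and another was 0.25 ± 0.42, all without a call.

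The promoters of these 2 plexins are shown because they were the plexins that rose. Each run holds the 250 bases before the RefSeq start site (GRCm38.p6), 5′ to 3′ on the strand of the gene. Capitals mark GGAAG or its reverse complement CTTCC, letters common to binding sites of ETS factors, a family active in endothelium. The Plxnd1 window is chr6:115995006-115995255, minus strand, and the Plxnc1 window is chr10:94944846-94945095, minus strand.
Plxnd1: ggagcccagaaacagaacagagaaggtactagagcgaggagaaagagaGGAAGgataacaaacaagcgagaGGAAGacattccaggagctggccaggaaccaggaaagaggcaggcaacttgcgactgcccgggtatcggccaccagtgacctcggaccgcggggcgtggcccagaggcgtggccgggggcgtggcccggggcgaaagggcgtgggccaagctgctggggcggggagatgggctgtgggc
Plxnc1: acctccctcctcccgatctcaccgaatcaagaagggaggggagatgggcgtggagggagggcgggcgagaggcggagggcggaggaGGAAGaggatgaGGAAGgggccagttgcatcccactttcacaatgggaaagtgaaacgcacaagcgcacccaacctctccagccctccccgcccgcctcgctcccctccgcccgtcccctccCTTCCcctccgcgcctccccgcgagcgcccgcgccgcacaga
The motif begins 202 and 179 bases before the start of Plxnd1, and 164, 152 and 42 bases before that of Plxnc1. It is a common string: 64.1% of all 32851 promoter windows of this length hold it at least once.

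The plexins of classes A and B moved otherwise. Plxnb2, a receptor of class 4 semaphorins such as Sema4c, gave 559.9 and 569.8 in the Flk1-positive cells, 1212 and 1296 in WT, and 1552 and 1260 in Flk1 KO. It fell by 1.12 ± 0.15 against WT (limma adjusted p = 0.00536), and both embryo groups lay above the cells without separating from each other. Plxnb1, the receptor of Sema4d, gave 289.5 and 283.4, then 640.5 and 569.4 in WT, and 511.7 and 394.7 in Flk1 KO. Its fall of 1.02 ± 0.17 against WT (limma adjusted p = 0.0101) was larger in its other probe set (-1.83 ± 0.14, 0.000953), but the call was lost without array 2 of the Flk1-positive cells (0.0521) or array 1 of WT (0.0659). Plxna3, which works with neuropilin 2 as a receptor of Sema3f, gave 228.4 and 244 in the Flk1-positive cells, 349.8 and 391.2 in WT and 424.6 and 425.2 in Flk1 KO. Its brightest probe set fell by 0.60 ± 0.13 (limma adjusted p = 0.0237), a call lost without either array of the cells (0.116 and 0.0844) or of WT (0.0762 and 0.128). The other probe set of Plxna3 gave a larger fall, -1.53 ± 0.13 (limma adjusted p = 0.00119).

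Plxnb3, a receptor of Sema5a, showed an order of its own. Its brightest probe set read 98.13 and 136.7 in the Flk1-positive cells, 198.4 and 195.6 in WT, and 26.3 and 47.8 in Flk1 KO, below background there. The differences from WT were -0.67 ± 0.23 for the Flk1-positive cells (limma adjusted p = 0.0943) and -1.92 ± 0.23 for Flk1 KO (limma adjusted p = 0.109), so neither was called although the arrays of the 3 groups do not overlap. The second probe set of Plxnb3 read 70.89 and 97.45 in the Flk1-positive cells, 46.43 and 9.901 in WT, and 13.85 and 51.1 in Flk1 KO, which does not repeat the high level in WT. Its differences had the opposite sign, 1.18 ± 0.49 and 0.13 ± 0.49.

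For the remaining A-type plexins, partners of neuropilins for class 3 ligands and receptors of class 6, no difference from WT was called. Plxna1 read 690.3 and 518.4 in the Flk1-positive cells, 852.2 and 692.7 in WT, and 927.2 and 767.6 in Flk1 KO. Its difference of -0.35 ± 0.21 from WT (limma adjusted p = 0.274) had the opposite sign in the other probe set (0.33 ± 0.14, 0.141). Plxna2 read 528.3 and 552.1, then 553.8 and 575.7 in WT, and 586.6 and 698.5 in Flk1 KO. The arrays of Plxna2 lay close together in the cells and WT. Plxna4 gave 197.3 and 135.3 in the Flk1-positive cells, 57.6 and 83.28 in WT, and 207.3 and 71.36 in Flk1 KO, where the 2 arrays disagreed. Its difference of 1.02 ± 0.45 from WT (limma adjusted p = 0.16) had the opposite sign in the other probe set (-0.65 ± 0.50).

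Plxdc2, a membrane protein with a plexin-like domain that binds the factor encoded by Serpinf1, read 208.8 and 151 in the Flk1-positive cells, 278.6 and 289.5 in WT, and 277.4 and 287.3 in Flk1 KO. The cells lay below both embryo groups. The difference of -0.62 ± 0.17 from WT missed the threshold (limma adjusted p = 0.053) and passed it without array 1 of the cells (0.0428), with the larger pseudocount (0.0269), with the filter at the median (0.0215) and with the robust prior (0.0259). Plxdc1, its relative known from tumour endothelium, and Plxna4os1 were above background in no group; their highest readings were 70.73 in 1 array of the Flk1-positive cells and 39.04 in 1 array of WT.

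The class 3 semaphorins, the secreted ligands, were split: 5 of 7 fell in the Flk1-positive cells (71.4%), 1 rose (14.3%) and 1 was not called. Over all genes tested 18.1% fell and 12.5% rose. Sema3e, a ligand of plexin D1, read 53.85 and 71.75 in the Flk1-positive cells, 936.7 and 1049 in WT, and 622.7 and 850.1 in Flk1 KO. The cells sat near background and both embryo groups far above it. The fall against WT was -3.59 ± 0.21, or 12.1-fold (limma adjusted p = 0.000493), and all 3 other probe sets were called the same way. Sema3g, a ligand that signals through neuropilin 2, took the opposite course, with 879.2 and 910.7 in the Flk1-positive cells, 94.64 and 88.96 in WT, and 76.01 and 59.01 in Flk1 KO. It rose by 3.01 ± 0.15, or 8.08-fold (limma adjusted p = 0.000433). The groups did not overlap, and Sema3g was the only class 3 member whose signal was higher in both arrays of the cells than in both of WT.

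Sema3a, which collapses axonal growth cones through neuropilin 1, read 153.6 and 159.9 in the Flk1-positive cells, 581.1 and 621.7 in WT, and 690.7 and 610.4 in Flk1 KO. It stayed above background in the cells and fell by 1.80 ± 0.13 against WT (limma adjusted p = 0.000824). Sema3c, which guides cardiac neural crest cells, read 37.44 and 29.98 in the Flk1-positive cells, 284.9 and 271.5 in WT, and 388.2 and 316.1 in Flk1 KO. Being below background in the cells, it was at least 3.79-fold lower there than in WT (fitted difference -2.44 ± 0.16, limma adjusted p = 0.000598). Its second, dimmer probe set pointed the same way without a call (-1.15 ± 0.40, limma adjusted p = 0.0905).

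Sema3b and Sema3d, dim in the embryos, were not above background in the cells. Sema3b, first described as a candidate tumour suppressor, read 2.481 and 6.292 in the Flk1-positive cells, 87.03 and 114.4 in WT, and 80.58 and 99.17 in Flk1 KO, at least 1.54-fold lower than in WT (-2.23 ± 0.18, limma adjusted p = 0.00108). For Sema3d, a guidance cue of veins and axons, the signals were 19.18 and 12.02 in the Flk1-positive cells, 96.16 and 91.44 in WT, and 118.2 and 107.3 in Flk1 KO. That is at least 1.46-fold lower than in WT (-1.64 ± 0.15, limma adjusted p = 0.00155). Sema3f, a ligand of neuropilin 2, was the member not called: 700.8 and 824.5 in the Flk1-positive cells, 796.7 and 489.6 in WT, and 618.7 and 718.6 in Flk1 KO, with overlap between all 3 groups. Its probe set, like those of Sema4a and Sema4f, is of a type (x_at) that may also bind other transcripts.

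The promoters of 3 class 3 genes are shown for the contrast between the ligand that rose and 2 that fell, in the same windows and with the same letters in capitals. The Sema3g window is chr14:31217623-31217872, that of Sema3e is chr5:14025026-14025275 and that of Sema3c is chr5:17574566-17574815, all on the plus strand.
Sema3g: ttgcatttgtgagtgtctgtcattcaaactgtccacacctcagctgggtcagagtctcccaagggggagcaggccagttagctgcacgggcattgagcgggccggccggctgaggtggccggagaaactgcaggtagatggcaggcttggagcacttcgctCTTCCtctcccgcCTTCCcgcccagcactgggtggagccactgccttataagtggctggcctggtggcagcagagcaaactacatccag
Sema3e: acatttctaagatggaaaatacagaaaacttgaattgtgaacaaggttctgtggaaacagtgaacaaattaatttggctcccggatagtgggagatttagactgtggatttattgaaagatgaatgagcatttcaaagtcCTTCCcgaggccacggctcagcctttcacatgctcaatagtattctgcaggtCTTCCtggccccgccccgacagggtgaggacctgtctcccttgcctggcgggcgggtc
Sema3c: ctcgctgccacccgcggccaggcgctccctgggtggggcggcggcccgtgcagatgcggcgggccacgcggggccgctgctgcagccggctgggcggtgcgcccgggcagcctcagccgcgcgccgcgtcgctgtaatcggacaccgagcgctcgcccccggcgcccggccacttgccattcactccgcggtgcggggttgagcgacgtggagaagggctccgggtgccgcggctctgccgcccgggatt
The motif begins 89 and 76 bases before the start of Sema3g and 110 and 58 bases before that of Sema3e, and these letters are not in the Sema3c window. Of the 32 genes, 24 had a RefSeq promoter in the table used. The motif was in at least 1 window of 5 of the 6 genes that rose, 11 of 12 that fell and 5 of 6 with no call. A gene with several windows has more chances to hold it, so these counts by gene cannot be set against the share of all windows. Counted by window, it was in 62.5% of the 8 windows of genes that rose, 87.5% of the 16 of genes that fell and 72.7% of the 11 of genes with no call. Together the 35 windows of these genes held it in 77.1% of cases, against the 64.1% of all windows.

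**Figure D2:**
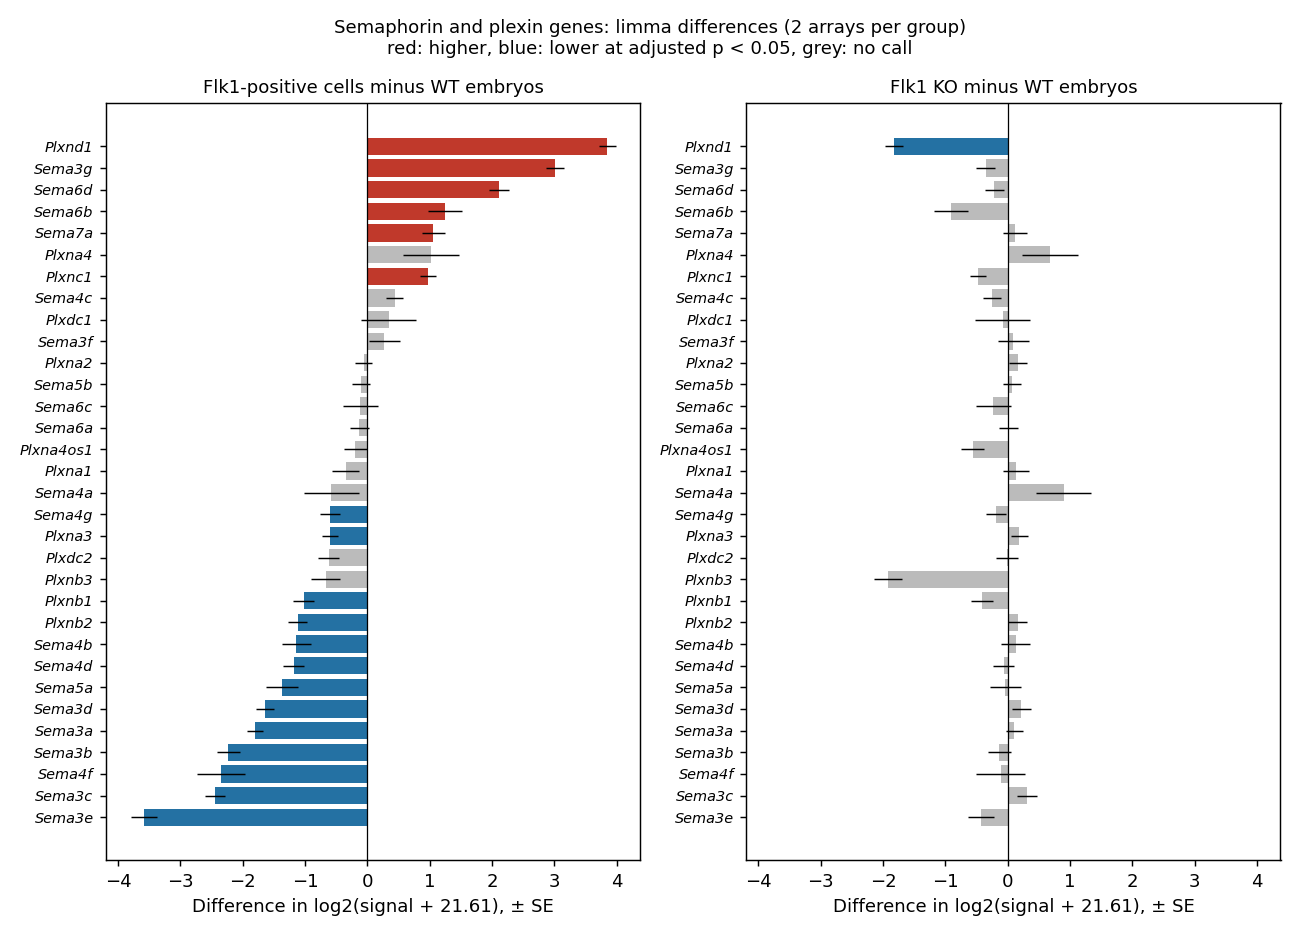
Fitted difference in log2(signal + 21.61) for each gene, with bars for the estimate and lines for ± SE (2 arrays per group), in Flk1-positive cells minus WT (left) and Flk1 KO minus WT (right); red and blue bars passed an adjusted p of 0.05 as higher and lower, grey bars did not. On the left Plxnd1 (3.85) and Sema3g (3.01) lie at the top and Sema3e (-3.59) at the bottom, and on the right Plxnd1 (-1.82) is the only coloured bar.

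The 6 class 4 semaphorins are membrane proteins that act mainly through B-type plexins. Of them, 4 fell in the Flk1-positive cells (66.7%) and none rose, with 18.1% and 12.5% over all genes tested. Only the fall of Sema4d held with each array left out in turn. Sema4d, the ligand of plexin B1, read 395.6 and 337.8 in the Flk1-positive cells, 831.6 and 879.9 in WT, and 917 and 729 in Flk1 KO. It fell by 1.18 ± 0.17 against WT (limma adjusted p = 0.00636), and by 0.57 without a call when the median over its probe sets was used (0.0752). Sema4f, a neuronal semaphorin, read 2.144 and 33.14 in the Flk1-positive cells, 147.5 and 178.4 in WT, and 142.4 and 156 in Flk1 KO. It was not above background in the cells and at least 2.33-fold lower there than in WT (-2.35 ± 0.39, limma adjusted p = 0.0105), a call lost without array 1 (0.051) or array 2 (0.0634) of WT.

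Sema4b gave 64.84 and 105.5 in the Flk1-positive cells, 190.8 and 231.1 in WT, and 256.3 and 209.5 in Flk1 KO. Its fall of 1.14 ± 0.23 against WT (limma adjusted p = 0.02) was lost without array 1 of the cells (0.0686) or either array of WT (0.0664 and 0.105). Sema4g gave 137.1 and 177 in the Flk1-positive cells, 261 and 233.6 in WT, and 215.2 and 215.5 in Flk1 KO. Its fall of 0.60 ± 0.16 (limma adjusted p = 0.0458) was the call nearest the threshold and was lost whichever array was left out, with adjusted p from 0.0583 to 0.191, and under other pseudocount, filter, scaling and group choices (up to 0.0856).

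The other members of class 4 were not called against WT. Sema4c, a ligand of plexin B2, read 1311 and 1459 in the Flk1-positive cells, 986.1 and 1043 in WT, and 892.9 and 808.1 in Flk1 KO. Its 3 groups were separate, but the difference of 0.44 ± 0.14 from WT missed the threshold (limma adjusted p = 0.0678). Sema4a, which also acts on immune cells, read 17.58 and 62.72 in the Flk1-positive cells, 42.98 and 92.82 in WT, and 152.3 and 126 in Flk1 KO. The 2 arrays of the cells and of WT overlapped, and Flk1 KO lay above WT by 0.90 ± 0.44 without a call (limma adjusted p = 0.673).

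In class 5, whose members carry thrombospondin repeats, 1 of 2 fell, where 18.1% of all genes tested did so. Sema5a, a ligand of plexin B3, read 98.34 and 98.87 in the Flk1-positive cells, 219.7 and 380.6 in WT, and 293.9 and 270.6 in Flk1 KO. The cells agreed closely while the WT arrays lay apart, and the fall was 1.37 ± 0.25 (limma adjusted p = 0.0148), lost without either array of the cells (0.0611 and 0.0612). Both other tested probe sets of Sema5a were called lower. Sema5b gave 197.4 and 203 in the Flk1-positive cells, 209.5 and 222.1 in WT, and 249.3 and 206.9 in Flk1 KO, with no call.

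In classes 6 and 7, 3 of 5 semaphorins rose in the Flk1-positive cells (60%) and none fell, with 12.5% and 18.1% over all genes tested. Only the rise of Sema6d held with each array left out in turn. Sema6d, a transmembrane ligand of plexin A1 known for its part in heart development, read 2244 and 2573 in the Flk1-positive cells, 593.6 and 487.9 in WT, and 444.3 and 481.7 in Flk1 KO. It rose by 2.11 ± 0.16, or 4.33-fold (limma adjusted p = 0.000859), and its 3 other probe sets were all called higher. Sema7a, anchored to the membrane by a lipid and able to bind both plexin C1 and integrins, read 252.6 and 297.2 in the Flk1-positive cells, 141.6 and 102 in WT, and 142.5 and 122.7 in Flk1 KO. The 2 embryo groups overlapped, and the rise of 1.06 ± 0.19 over WT (limma adjusted p = 0.0134) was lost without array 2 of the cells (0.068), without array 2 of WT (0.0666) or with the median over probe sets (0.0555).

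Sema6b, a ligand of plexin A4, read 174.1 and 196.3 in the Flk1-positive cells, 57.37 and 74.06 in WT, and 38.17 and 14.34 in Flk1 KO, again 3 separate groups. Its rise of 1.25 ± 0.27 over WT (limma adjusted p = 0.0238) was lost without either array of the cells (0.0722 and 0.0963) or of WT (0.118 and 0.0746), and with the smaller pseudocount (0.0664). Sema6a and Sema6c, also transmembrane ligands, were not called. Sema6a gave 219.4 and 238.4 in the Flk1-positive cells, 227.2 and 280.1 in WT, and 246 and 261.2 in Flk1 KO. The brightest probe set of Sema6c gave 239.9 and 175.1, then 270.1 and 184 in WT, and 230.8 and 150.2 in Flk1 KO. There the arrays of a group differed more than the groups. Its other tested probe set was lower in the cells than in every embryo array, without a call. The differences were -0.83 ± 0.31 against WT (limma adjusted p = 0.111) and -0.9 ± 0.31 against Flk1 KO (0.0845).

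**Figure D3:**
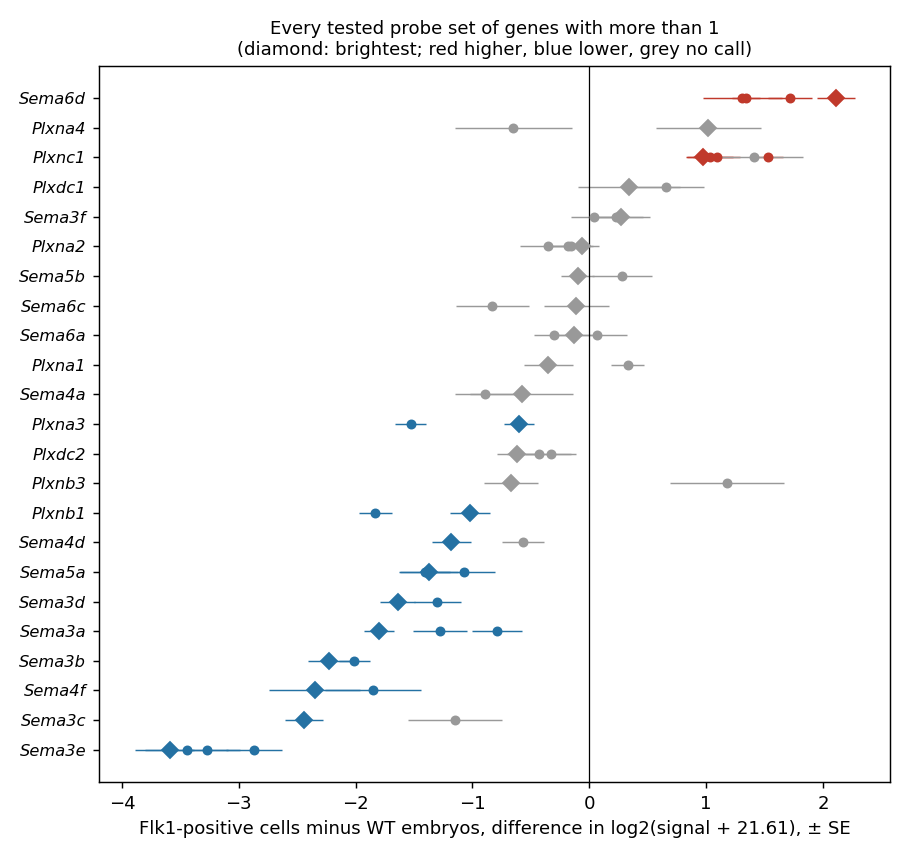
Difference between Flk1-positive cells and WT embryos for every tested probe set of the genes with more than 1 (points with lines for ± SE, diamonds for the brightest), coloured red or blue where called higher or lower. The 21 further probe sets of the called genes lie on the same side of 0 as the brightest one. Among the genes not called, Plxna1, Plxna4, Plxnb3, Sema5b and Sema6a have probe sets on both sides.

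Where probe sets could be compared, they agreed within the called genes. Against WT, 12 of the 19 genes called in the Flk1-positive cells had further tested probe sets, 21 in all. All 21 had the same sign as the brightest, 18 carried the same call and 0 the opposite call. The further probe set of Sema3d, which carried the same call, was below background in both groups. Plxnd1 and Sema3g, which head the rises, have 1 probe set each and no such check.

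Set beside their receptors, the ligands showed no single pattern. For Sema3e and its receptor Plxnd1 the signs were opposite in the Flk1-positive cells against WT, -3.59 for the ligand and 3.85 for the receptor. Sema7a and Plxnc1 both rose (1.06 and 0.97), and Sema4d and Plxnb1 both fell (-1.18 and -1.02). Plxnb2 fell (-1.12) while its ligand Sema4c had a difference of 0.44 that was not called. Sema6d rose (2.11) with its receptor Plxna1 at -0.35, not called and with 0.33 in its other probe set. Sema5a fell (-1.37) with Plxnb3 at -0.67, not called and of unsettled sign, since its other probe set was at 1.18. Sema6b rose (1.25) with Plxna4 at 1.02, not called and likewise unsettled, with -0.65 in its other probe set.

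Flk1 KO against WT sets embryos against embryos, and 7 of the 8 endothelial markers were not above background in Flk1 KO. A lower signal there cannot tell less transcript in each cell from fewer cells that make it. Here 1 of the 32 genes was lower and 0 higher by limma, and 0.154% of all genes tested were lower and 0 higher. The median difference of the family was -0.05, against 0 over all genes. Median centring moved the median of all probe sets tested by 0.10 in this comparison, so medians this small have no settled sign. At an unadjusted p under 0.05, 5 members were lower (Plxnd1, Plxnb3, Plxnc1, Sema6b and Plxna4os1, the last below background in both groups) and 0 were higher, where 3.67% of all genes tested were lower and 2.62% higher.

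The 1 called gene was Plxnd1, which fell by 1.82 ± 0.14 from WT to Flk1 KO, or 3.54-fold (limma adjusted p = 0.0427). The KO arrays agreed at 100.9 and 101.2, and both WT arrays, 445.9 and 381, were more than 3 times as high. The call sits at the threshold: it was lost whichever array was left out, with adjusted p of 0.168 without either array of the cells, 0.219 and 0.222 without array 1 and array 2 of Flk1 KO, and 0.383 and 0.317 without array 1 and array 2 of WT, while the difference stayed between -1.93 and -1.71. Both other scalings also took it just past the threshold, to 0.0531 with quantile normalization and 0.0522 with median centring. The 8 endothelial markers were all lower in both KO arrays than in both WT arrays, with 4 called, and their median difference was -2.14. The part that their lower level had in that of Plxnd1 was not tested.

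None of the other genes that rose in the Flk1-positive cells was called in Flk1 KO by limma. Differences from WT in Flk1 KO were -0.91 ± 0.27 for Sema6b (limma adjusted p = 0.464), -0.47 ± 0.13 for Plxnc1 (0.446), -0.35 ± 0.15 for Sema3g (0.614), -0.21 ± 0.16 for Sema6d (0.807) and 0.12 ± 0.19 for Sema7a (0.916). Sema6b was below background in Flk1 KO, so its signal there was at least 1.10-fold lower than in WT. For Sema6b, Plxnc1, Sema3g and Sema6d the KO arrays lay below both WT arrays, and for Sema7a they overlapped. Sema3e was -0.43 ± 0.21 (limma adjusted p = 0.668) with both KO arrays below both WT arrays, and the class 3 ligands as a whole had 0 calls and a median difference of 0.09. Across the family 11 genes had both KO arrays below both WT arrays and 5 above, where 18.2% and 19.1% of all genes tested did so.

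Flk1-positive cells against Flk1 KO share their arrays with both comparisons above and set the cells against embryos in which 7 of 8 endothelial markers were not above background. In it 8 of the 32 genes were higher (25%) and 12 lower (37.5%), with 13.2% and 19.6% over all genes tested. Plxnd1 was 51-fold higher (5.67 ± 0.14, limma adjusted p = 9e-05), Sema3g 10.3-fold (3.37 ± 0.15, 0.000225) and Sema6d 5.01-fold (2.32 ± 0.16, 0.000565). Plxnc1 was higher by 1.44 ± 0.13 (limma adjusted p = 0.00142), Sema6b at least 2.61-fold (2.16 ± 0.27, 0.00373), and Sema7a by 0.94 ± 0.19 (0.0176), the last lost without array 2 of the cells (0.0834) or array 1 or 2 of Flk1 KO (0.0513 and 0.0772), and with the median over probe sets (0.0697).

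The other genes called higher against Flk1 KO were Sema4c and Plxnb3. Sema4c was higher by 0.69 ± 0.14 (limma adjusted p = 0.0163), lost without array 1 or 2 of the cells (0.0531 and 0.088) or array 2 of Flk1 KO (0.0558). Plxnb3 was at least 1.74-fold higher (1.26 ± 0.23, limma adjusted p = 0.0137), with its second probe set in the same direction (1.05 ± 0.49, 0.167) and the call lost without array 2 of the cells (0.0614) or with the median over probe sets (0.0523). Left without that array, 5 of the 32 genes were higher in place of 8.

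Among the ligands and plexins lower in the cells than in Flk1 KO, Sema3e was -3.16 ± 0.21 (limma adjusted p = 0.000477), Sema3c at least 4.71-fold lower, Sema3d at least 1.70-fold, Sema3b at least 1.41-fold, and Sema3a -1.91 ± 0.13 (0.000592). Plxnb2 was -1.28 ± 0.15 (limma adjusted p = 0.00317), Sema4d -1.12 ± 0.17 (0.00694) and Plxna3 -0.79 ± 0.13 (0.009). The falls of Sema4b (-1.27 ± 0.23, limma adjusted p = 0.0129), Sema4f (at least 2.16-fold, -2.24 ± 0.39, 0.011), Sema5a (-1.34 ± 0.25, 0.0146) and Plxnb1 (-0.61 ± 0.17, 0.0447) were less firm. The call was lost without array 1 of Flk1 KO (0.0664) or with the median over probe sets (0.0512) for Sema4b, without array 1 or 2 of Flk1 KO (0.0568 and 0.0635) for Sema4f, and without array 1 of the cells (0.055) for Plxna3. For Sema5a it was lost without any 1 array of the cells or of Flk1 KO (0.0586 to 0.0725). For Plxnb1 it was lost whichever array was left out other than array 2 of Flk1 KO (0.0791 to 0.148), and under the smaller pseudocount, no filter, quantile normalization and only the 2 groups (0.0555 to 0.0791). Sema4g was not called (-0.42 ± 0.16, limma adjusted p = 0.11). Sema4a missed the threshold here (-1.48 ± 0.44, limma adjusted p = 0.0563) and passed it without array 2 of the cells (0.0281). It also passed with the larger pseudocount (0.0141), median centring (0.0487), the robust prior (0.0139), the replicate block (0.0444) and the median over probe sets (0.00686). Sema4a was not above background in the cells, so its signal there was at least 2.03-fold lower than in Flk1 KO. Its other probe set passed the threshold as lower (-1.53 ± 0.26, limma adjusted p = 0.0106), but lay below background in both groups. Plxdc2 missed it as well (-0.61 ± 0.17, limma adjusted p = 0.051) and passed without array 1 of the cells (0.0405) and under 4 other settings (0.0212 to 0.0311).

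The levels of other tissues' markers moved with the falls. In the Flk1-positive cells 6 neuroectoderm markers summed to 260.2 to 340.6, against 9722 to 9885 in WT and 8895 to 9353 in Flk1 KO, with Pax6, Otx2, Sox1 and Hes5 not above background. The 6 somite and presomitic markers summed to 384.8 to 399.9 in the cells, 3031 to 3117 in WT and 3283 to 3546 in Flk1 KO, with Uncx and Tbx6 not above background in the cells. For 5 cardiomyocyte markers the sums were 1224 to 1339, 16390 to 16990 and 22230 to 32900, and for 4 surface ectoderm markers 2368 to 2485, 14980 to 16030 and 14700 to 16650. Of 5 neural crest markers, 4 were not above background in the cells, and the sum of 7048 to 7324 there, against 2887 to 2915 in WT and 2484 to 2512 in Flk1 KO, was carried by Ets1, which endothelium also expresses. Of 5 gut endoderm markers 3 were not above background (Epcam, Foxa1 and Foxa2). Their sums were 4915 to 5304, 7147 to 7475 and 5027 to 6647, and that of the cells was carried by Sox17, also an endothelial gene, which rose to 4660 and 5039 there from 1232 and 1238 in WT. Semaphorins are widely made by neural and somitic tissue, and the part that these lower levels had in the falls was not tested. Of the RNA controls, Tfrc and Actb differed, in opposite directions. The gap between 3′ and 5′ probe sets of Tfrc was 1.26 and 1.35 on the log2 scale in the cells against 0.94 to 1.05 in the embryos. That of Actb was 0.26 and 0.29 against 0.47 to 0.58. The gap of Gapdh was similar in all groups, -0.32 and -0.36 in the cells against -0.37 to -0.32 in the embryos. The part of these control values in the falls was likewise not tested.

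Proteins that work beside plexins at the membrane were read from a list of 15 genes, of which 14 were tested. Against WT 4 rose in the Flk1-positive cells and 3 fell (28.6% and 21.4%), with 12.5% and 18.1% over all genes tested, so the share that fell was near that of all genes. Nrp2, the coreceptor of Sema3g and Sema3f, gave 3058 and 3334 in the Flk1-positive cells, 982.1 and 1126 in WT, and 1303 and 1219 in Flk1 KO. It rose by 1.58 ± 0.14 (limma adjusted p = 0.00139), with its 3 other tested probe sets called too. Nrp1, the coreceptor of Sema3a and of VEGF, gave 3898 and 3647 in the Flk1-positive cells, 2043 and 1866 in WT, and 1389 and 1918 in Flk1 KO. Its rise of 0.94 ± 0.19 (limma adjusted p = 0.019) was lost without either array of the cells (0.0853 and 0.0677) or of WT (0.076 and 0.101), and its 3 other tested probe sets were all called higher. Both neuropilins rose in the cells in which Sema3g rose and Sema3a fell.

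Itga1 and Itgb1, which form an integrin that binds Sema7a, rose together. Itga1 read 474.1 and 509.4 in the Flk1-positive cells, 31.3 and 68.39 in WT, and 39.52 and 43.98 in Flk1 KO, at least 6.50-fold above WT (2.89 ± 0.26, limma adjusted p = 0.00151). Itgb1 read 3237 and 3259 in the Flk1-positive cells, 1599 and 1544 in WT, and 1913 and 1614 in Flk1 KO, a rise of 1.04 ± 0.14 (limma adjusted p = 0.00534). Of the 3 other tested probe sets of Itgb1, all pointed the same way and 1 was called.

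Met, the receptor kinase that couples to B-type plexins, was not above background in the cells, with 17.67 and 13.71 there, 491.1 and 427.1 in WT, and 431.4 and 455.1 in Flk1 KO. It was at least 6.07-fold lower than in WT (-3.69 ± 0.14, limma adjusted p = 0.000388), beside the falls of Plxnb1 and Plxnb2. Nrcam, an adhesion molecule that joins neuropilin 2 in axons, read 40.51 and 16.94 in the Flk1-positive cells, 345.6 and 296.7 in WT, and 429.1 and 375.7 in Flk1 KO, at least 4.33-fold lower (-2.80 ± 0.25, limma adjusted p = 0.00147). Another probe set of Nrcam pointed the same way without a call (-1.1, limma adjusted p = 0.071). Pcsk5, a protease of the convertase family that cuts secreted precursors, read 108.3 and 137.1 in the Flk1-positive cells, 279.7 and 320.1 in WT, and 270.5 and 283.5 in Flk1 KO. Its brightest probe set fell (-1.16 ± 0.16, limma adjusted p = 0.00548), but the median over its probe sets was 0.18 (0.499), so the gene has no settled direction.

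Of 34 genes that carry the signal inside the cell, 31 were tested, and in the Flk1-positive cells 10 rose and 6 fell against WT (32.3% and 19.4%), with 12.5% and 18.1% over all genes, so here too the share that fell was near that of all genes. Rras, the small GTPase that plexins switch off, gave 1172 and 1052 in the Flk1-positive cells, 354.5 and 359.2 in WT, and 432.7 and 407.6 in Flk1 KO, a rise of 1.58 ± 0.13 (limma adjusted p = 0.0011). The kinase Fyn, which acts at A-type plexins, gave 2367 and 2414 in the Flk1-positive cells, 903.9 and 925.3 in WT, and 1073 and 1003 in Flk1 KO, a rise of 1.37 ± 0.12 (limma adjusted p = 0.00145). The kinase Fes read 459.3 and 440.7 in the Flk1-positive cells, 101.1 and 45.49 in WT, and 106 and 58.94 in Flk1 KO, a rise of 2.38 ± 0.35 (limma adjusted p = 0.00721). For each of the 3 genes the arrays of the cells lay above every embryo array.

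On the falling side, Dpysl5, a neuronal mediator of the collapsin response, read 39.46 and 53.92 in the Flk1-positive cells, 902.7 and 598.5 in WT, and 651.2 and 769.1 in Flk1 KO, at least 9.58-fold lower (-3.48 ± 0.24, limma adjusted p = 0.000682). Its relative Dpysl4 read 64.27 and 50.8 in the Flk1-positive cells, 180.5 and 150.5 in WT, and 266 and 182 in Flk1 KO. This was at least 2.36-fold lower (-1.24 ± 0.22, limma adjusted p = 0.0123), lost without array 2 of the cells (0.0616) or array 1 of WT (0.0743). Another probe set of Dpysl4 pointed the same way without a call (-1.19, limma adjusted p = 0.0854). Rnd3, a GTPase of the family that binds plexins inside the cell, gave 705.4 and 874.1 in the Flk1-positive cells, 2070 and 1875 in WT, and 1641 and 1828 in Flk1 KO, a fall of 1.30 ± 0.16 (limma adjusted p = 0.00408). These counts moved when arrays were left out: without array 1 of WT, 5 genes were higher and 3 lower; without array 2 of the cells, 6 and 3; and 5 were higher without array 1 of the cells or array 2 of WT.

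Between Flk1 KO and WT, 0 genes of either list were called in either direction by limma. At an unadjusted p under 0.05, Serpinf1 and Ptk7 of the first list and Cdk5 and Dpysl3 of the second were higher in Flk1 KO, and 0 were lower. Over all genes tested 2.62% were higher and 3.67% lower at that threshold.

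**Figure D4:**
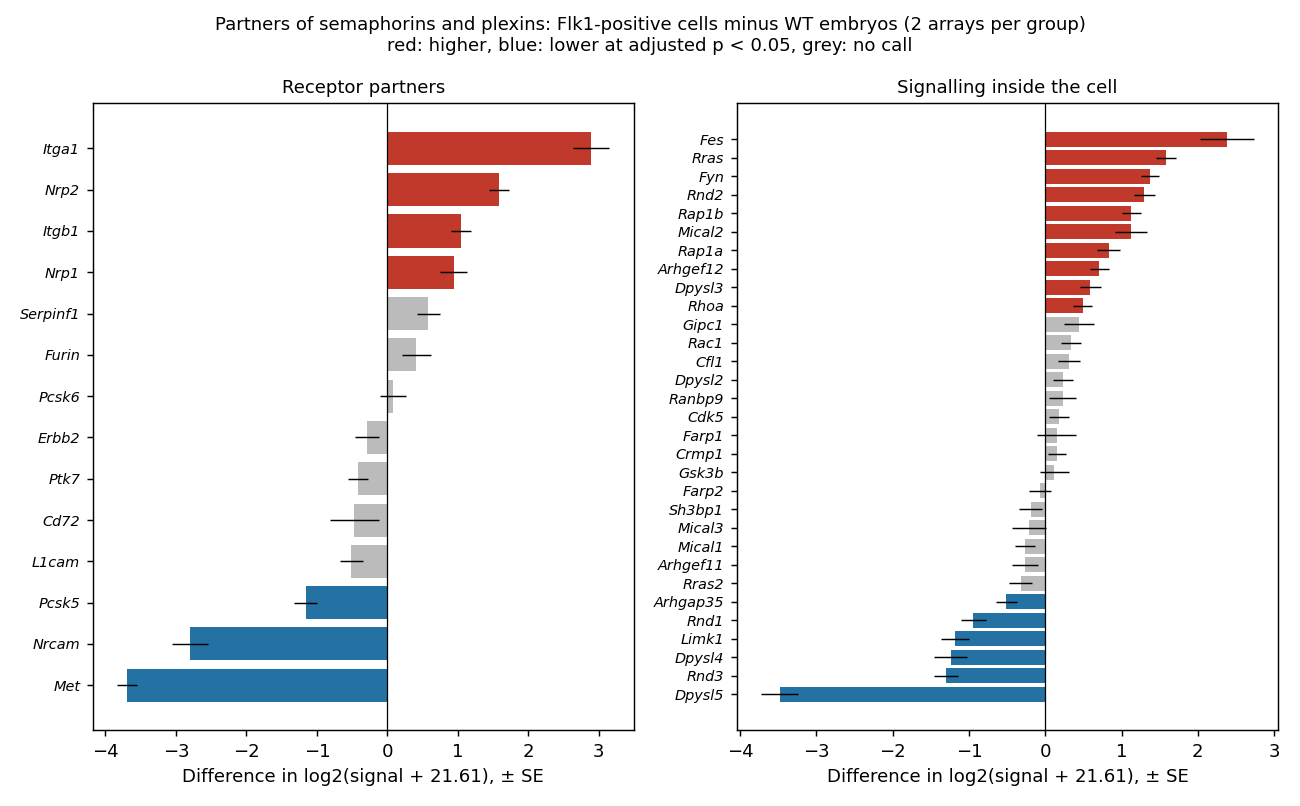
Difference between Flk1-positive cells and WT embryos in log2(signal + 21.61), with lines for ± SE (2 arrays per group), for 14 membrane partners (left) and 31 genes that act inside the cell (right); red and blue bars passed an adjusted p of 0.05. Itga1 (2.89) and Nrp2 (1.58) lead the membrane partners that rose, Met (-3.69) those that fell, and Dpysl5 (-3.48) the fall inside the cell.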

How the data were processed

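The deposited table holds a linear intensity for each of 45101 probe sets on 6 Affymetrix arrays, on 1 common scale (trimmed mean 500, with 2% left out at each end) and with a floor of 1. A summary and scaling method was not given in the sources used here, and no detection calls were used. GeneSpring is named for the authors' analysis in the design text of the series.

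Gene names came from the platform annotation, and all 32 member symbols were found unchanged in RefSeq. Values were transformed as log2(signal + 21.61), the pseudocount being the 25th percentile of all values. Left out were 64 control probe sets and those with a mean log2 value under the 25th percentile of such means, which left 33778 probe sets of 14946 genes. All 6 arrays entered 1 linear model of group alone (limma 3.58.1, R 4.3.3). Tests were 2-sided, with 3 residual degrees of freedom and a prior worth 2.49. Benjamini-Hochberg correction ran over all probe sets tested, with a threshold of 0.05. A check on simulated data drew its errors from this same model, so it cannot show whether the model holds for these arrays. With 2 arrays per group, their number limits the precision. Background was the 95th percentile of 80 odorant and vomeronasal receptor probe sets (6.30 on the log2 scale).

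Members, partner lists and markers were chosen with earlier results of these data known. Signals are given for each member above background in at least 1 group, and differences for those that passed the test or differed by 0.5 or more with arrays apart, and for some others. Of each partner list, Nrp1, Nrp2 and up to 3 rises and 3 falls of largest size against WT are named; Rhod, Pak1 and Ptk2 were not analysed here. Alternatives were 2 pseudocounts, 2 filters, 2 scalings, another variance prior, fits on only the groups compared, the replicate number as a block, other probe sets and the median over them, and leaving out each array.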

Additional observations from a re-analysis of the deposited data

How the results depend on the processing

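For the Flk1-positive cells, the member counts against WT ranged from 5 to 7 higher and 12 to 15 lower over all settings other than leaving out arrays, and against Flk1 KO from 6 to 8 higher and 11 to 15 lower. Leaving out 1 array gave 4 to 6 higher and 8 to 12 lower against WT (8 without array 1 of WT), and 5 to 8 higher and 8 to 11 lower against Flk1 KO (5 without array 2 of the cells). For Flk1 KO against WT, the count of members lower was 0 with the pseudocount at the 10th percentile, no filter, quantile normalization, median centring or only the 2 groups compared, and 0 to 0 leaving out 1 array. It was 2 with the pseudocount at the median, the filter at the median or the intensity trend with a robust prior, the second gene being Plxnb3 (adjusted p = 0.0214, 0.0246 and 0.0103, limma). Fewer arrays or groups leave fewer degrees of freedom; otherwise the cause was not tested.

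The reversed values were these. Plxnb3 in the Flk1-positive cells against WT was 0.26 with the median over its probe sets and 1.18 in the other probe set, and 0.13 in Flk1 KO against WT. Plxna4 was -0.65 in its other probe set. Pcsk5 was 0.18 with the median and 1.07 in another probe set. The cause was not tested.

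With the replicate number as a block, 6 members were higher and 12 lower in the cells against WT, 8 and 13 against Flk1 KO, and 0 were called in Flk1 KO against WT. Deviations of arrays with the same number correlated at 0.008, 0.029 and 0.023 between groups, so the numbers were not taken as a pairing.

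Median centring moved the median of all probe sets tested by 0.10 in Flk1 KO against WT, and elsewhere the other scalings moved it by at most 0.06 in size. Groups below background give bounds only.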
